A study of Mus musculus with 8 samples.

Results

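The genes described here are 10 genes of the fast skeletal muscle fibre: the fast myosin heavy chains *Myh2* (IIA), *Myh1* (IIX) and *Myh4* (IIB), the fast light chains *Myl1* and *Mylpf*, the fast troponins *Tnni2*, *Tnnt3* and *Tnnc2*, the calcium pump *Atp2a1* and the Z-disc protein *Actn3*. They were chosen by name, from 20660 genes named on the arrays, through the RefSeq accession of each probe. They are covered by 12 of 55681 probes, since *Myl1* and *Tnnt3* each have 2. All 10 were tested in both muscles.

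RNA of gastrocnemius and tibialis anterior (TA) was measured on 8 two-colour Agilent arrays, 4 for each muscle. On each array the RNA of 1 *Eif6*+/- mouse carried Cy5 and that of 1 WT (*Eif6*+/+) mouse Cy3, as the sample labels have it. All mice were male C57BL6 littermates aged 8 to 16 weeks without further treatment, and a mutant and an age-matched WT mouse were put together at random as a pair. *Eif6*+/- mice are heterozygous for an inactivated allele of *Eif6*, a factor in ribosome assembly and translation, and the methods name no promoter or tissue that limits it to muscle. The labels do not say whether the pairs of the 2 muscles with the same number are the same mice. No array had the dyes swapped and the methods name Cy3 labelling alone, so that dye and genotype cannot be told apart. The arrays lay on 1 slide, each muscle in a row of its own, so that effects of row and muscle cannot be told apart. In a piece of muscle, fewer fibres of a type and less RNA per fibre cannot be told apart from these arrays. The paper reports that fibre-type composition did not change in *Eif6*+/- mice. Its methods name ATPase staining of quadriceps, gastrocnemius and soleus sections. TA is not among them, and IIB and IIX fibres were not separated.

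A fast fibre is named for the myosin heavy chain that drives its contraction. IIA fibres contract fast but are rich in mitochondria and resist fatigue, IIB fibres are the fastest and rely on glycolysis, and IIX fibres lie between them. The light chains brace the myosin head and tune its speed, the troponin complex opens the thin filament to myosin when calcium arrives, and the pump *Atp2a1* (SERCA1) returns calcium to the sarcoplasmic reticulum. Slow fibres use the same machinery built from other genes. TA is a fast muscle, while gastrocnemius is mixed.

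*Myh2*, *Myh1* and *Myh4* lie next to each other on chromosome 11 in the same direction. The bases before their start sites are shown because the log2 ratios of these neighbours ran together or apart from array to array. Each sequence is the 250 bases before the RefSeq start (build GRCm38.p6, plus strand), at chr11:67170777-67171026 for *Myh2*, chr11:67199852-67200101 for *Myh1* and chr11:67237562-67237811 for *Myh4*. Capitals mark TATAAA on either strand (TTTATA is its reverse complement) and the longest stretch that all 3 windows share.
Myh2: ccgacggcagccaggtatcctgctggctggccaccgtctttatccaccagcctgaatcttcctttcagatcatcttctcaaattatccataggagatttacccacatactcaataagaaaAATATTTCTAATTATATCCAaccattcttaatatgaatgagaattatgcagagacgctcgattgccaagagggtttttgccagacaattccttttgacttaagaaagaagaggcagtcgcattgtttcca
Myh1: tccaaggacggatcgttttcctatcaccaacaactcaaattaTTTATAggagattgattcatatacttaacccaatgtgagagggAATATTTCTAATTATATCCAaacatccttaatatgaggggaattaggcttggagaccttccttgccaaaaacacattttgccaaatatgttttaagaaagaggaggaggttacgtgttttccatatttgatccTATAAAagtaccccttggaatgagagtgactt
Myh4: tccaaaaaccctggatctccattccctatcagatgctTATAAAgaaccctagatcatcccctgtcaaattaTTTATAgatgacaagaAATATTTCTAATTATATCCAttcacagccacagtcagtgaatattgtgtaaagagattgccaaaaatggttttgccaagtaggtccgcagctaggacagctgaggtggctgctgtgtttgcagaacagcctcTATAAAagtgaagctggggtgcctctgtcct
The shared stretch, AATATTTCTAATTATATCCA, is 20 bases long and occurred in 3 of 32851 promoter windows of this length, those of these 3 genes (0.00913%). It began 130 bases before the start of *Myh2*, 165 before that of *Myh1* and 163 before that of *Myh4*. Since the stretch was picked from these 3 windows, its presence in them was set in advance, and its rarity is no measure of a shared function. TATAAA occurred in *Myh1* and *Myh4*, at 32 and 31 bases before the start and also farther up, but not in the window of *Myh2*, and 12.4% of all windows hold it on either strand. CANNTG, the E-box, occurred 2 times in *Myh4* and not in the windows of *Myh1* and *Myh2*, against 66.2% of all windows. These are matches of letters and not measured binding. The coding sequences of the 3 genes are close copies of each other, and the probe sequences are not in the files used here, so that a probe of one gene may also bind RNA of another.

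Levels below are log2 intensities after normalization, and ratios are log2 of *Eif6*+/- over WT on an array. A gene counted as changed where the adjusted p (limma, Benjamini-Hochberg over all probes tested in the muscle) was under 0.1. The labels held for *Eif6* itself, whose 2 probes gave mean log2 ratios of -1.13 and -1.02 in gastrocnemius and -1.12 and -0.999 in TA. No spot was saturated. Of all probes, 38.7% to 48.6% were well above background in a channel of an array. The fast fibre probes other than that of *Mylpf* were brighter than at least 99.5% of all probes, and that of *Mylpf* was brighter than 95.6%.

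In gastrocnemius 3 of the 10 genes passed the test, *Myh1* higher and *Atp2a1* and *Actn3* lower in *Eif6*+/-, against 15.4% of all 12609 genes tested (9.85% higher and 5.53% lower). In TA 4 passed, *Myh4* and *Tnnc2* higher and *Mylpf* and *Atp2a1* lower, against 16.3% of 12381 (8.98% higher and 7.29% lower). In this main setting *Atp2a1* was the only one of the 10 to pass in both muscles. With loess alone or the deposited log2 ratios, *Myh4*, *Tnni2* and *Tnnc2* passed in both and *Atp2a1* in neither. The median log2 ratio of the 10 was 0.15 in gastrocnemius and 0.05 in TA, beside 0.02 over all genes in each. Both directions were thus present among the 10 in each muscle. Leaving out gastrocnemius pair 3 or pair 4 left none of the 10, and no other gene, past the threshold (limma, with 2424 and 2649 genes at an unadjusted p under 0.05), and without pair 1 the count was 7 (5 higher and 2 lower), where 14% of all genes passed. Without TA pair 1 *Myh4* alone passed, where 68 of 12381 genes did (0.549%, against 2014 with all pairs), and without TA pair 2 *Myh4* and *Tnnc2*, where 531 did (4.29%). The TA calls of the other lists are given with all 4 pairs. With loess alone and with the deposited log2 ratios, 5 of the 10 passed in gastrocnemius and 6 in TA, at most 1 of them lower, where 15.1% of all genes passed in gastrocnemius in both settings and 17.1% and 15.8% in TA. With Agilent's processed signals 3 passed in each muscle, all of them higher, where 7.93% and 6.25% of all genes passed. With median centring alone, added after seeing the data, all 10 were higher in both muscles, in a setting that called 80.2% and 82% of all genes and put the median of all genes at 0.59 and 0.55.

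**Figure D1:**
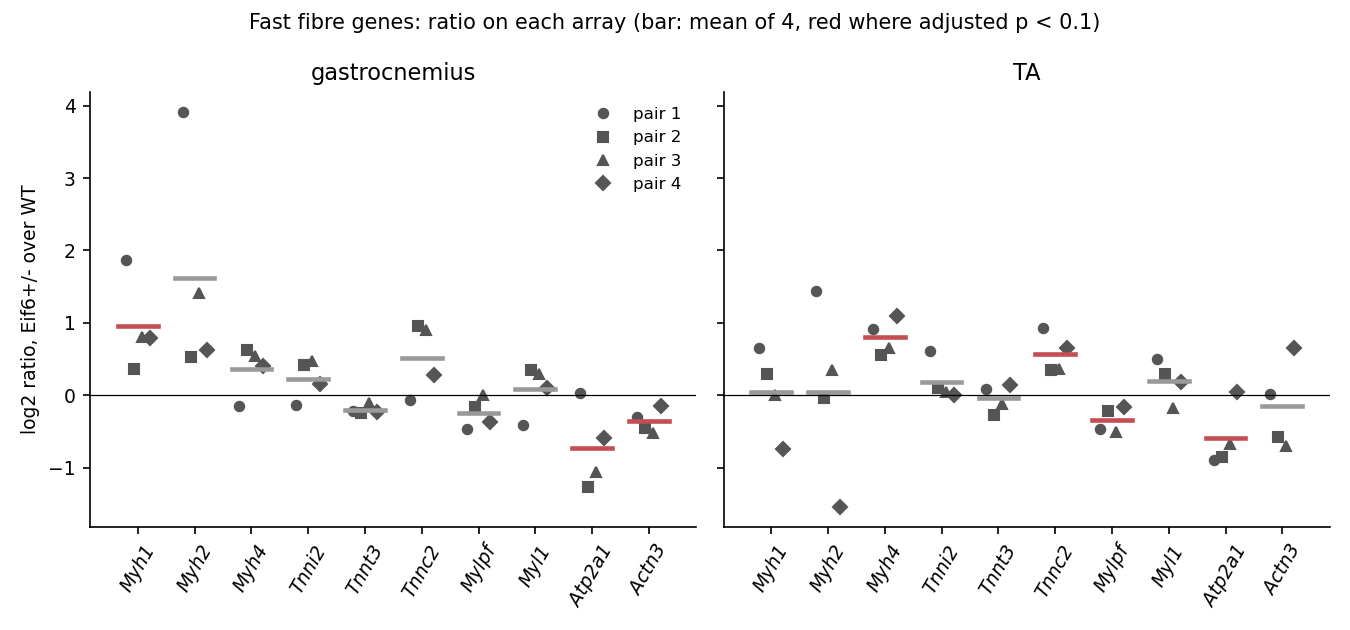
Log2 ratio of *Eif6*+/- over WT (vertical axis) on each of the 4 arrays of gastrocnemius (left) and TA (right) for the 10 fast fibre genes, by the brightest probe of each. Bars are means of 4 arrays, in red where the adjusted p was under 0.1. *Myh2* spreads most in each muscle (SD 1.58 and 1.24), with gastrocnemius pair 1 at the top and TA pair 4 at the bottom; the lower values of *Atp2a1*, *Actn3* and *Mylpf* turn positive under median centring alone.

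*Myh2* encodes the IIA heavy chain, the fast myosin of oxidative fibres. Its log2 ratios in gastrocnemius were 3.92, 0.52, 1.41 and 0.62 in pairs 1 to 4. All were above 0, and pair 1 stood far above the other pairs. The mean was 1.62 ± 1.58 (SD, n = 4), a 3.07-fold difference that missed the threshold (limma, adjusted p = 0.104). Without pair 1 the mean was 0.85 and passed (limma, adjusted p = 0.0462). Of 16 alternatives and left-out pairs 9 passed, and the adjusted p over all ran from 0.000819 to 0.262. In TA the log2 ratios of *Myh2* were 1.44, -0.04, 0.34 and -1.55. They lay on both sides of 0, with a mean of 0.05 ± 1.24 (SD, n = 4; limma, adjusted p = 0.947).

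*Myh1* encodes the IIX heavy chain. Its log2 ratios in gastrocnemius were 1.87, 0.36, 0.81 and 0.80 in pairs 1 to 4. All 4 were above 0, and again pair 1 was the highest. The mean was 0.96 ± 0.64 (SD, n = 4), so that *Myh1* was 1.94-fold higher in *Eif6*+/- gastrocnemius (limma, adjusted p = 0.0521). The direction held under all 16 alternatives and left-out pairs, while the call was lost without pair 3 (adjusted p = 0.168), without pair 4 (0.171) and with the methods' t-test (0.125). In TA the log2 ratios of *Myh1* were 0.66, 0.29, 0.00 and -0.74, with a mean of 0.05 ± 0.59 (SD, n = 4; limma, adjusted p = 0.888). As for *Myh2*, TA pair 4 was the lowest of the 8 arrays.

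*Myh4* encodes the IIB heavy chain of the fastest fibres. Its log2 ratios in TA were 0.92, 0.55, 0.65 and 1.096 in pairs 1 to 4. They lay close together and all above 0. The mean was 0.80 ± 0.25 (SD, n = 4), a 1.74-fold increase in *Eif6*+/- TA (limma, adjusted p = 0.0119). It passed under all 16 alternatives and left-out pairs, with adjusted p up to 0.0987. In gastrocnemius the log2 ratios were -0.15, 0.62, 0.54 and 0.41, and only pair 1 was below 0. Their mean was 0.36 ± 0.35 (SD, n = 4) and missed the threshold (limma, adjusted p = 0.14), which it passed without pair 1 (mean 0.52, adjusted p = 0.0401) and under 4 other alternatives. On the array where *Myh2* and *Myh1* were highest, *Myh4* was thus lowest. With Agilent's processed signals the gastrocnemius ratios of *Myh4* were 0.20, 0.54, 0.34 and 0.56, with pair 1 lowest but above 0.

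The log2 ratios of these genes were also set against each other within an array, where a constant scaling of the array cancels but a normalization that depends on intensity does not. *Myh2* minus *Myh4* was 4.06 in gastrocnemius pair 1 and -0.10, 0.87 and 0.22 in pairs 2 to 4 (log2). In TA it was 0.52, -0.59, -0.30 and -2.65 in pairs 1 to 4. *Myh1* minus *Myh4* was 2.02, -0.26, 0.27 and 0.39 in gastrocnemius and negative on all 4 TA arrays, from -1.84 to -0.26. The shift towards IIA and IIX relative to IIB in gastrocnemius pair 1 and the opposite shift in TA pair 4 were thus the widest of the 8.

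**Figure D2:**
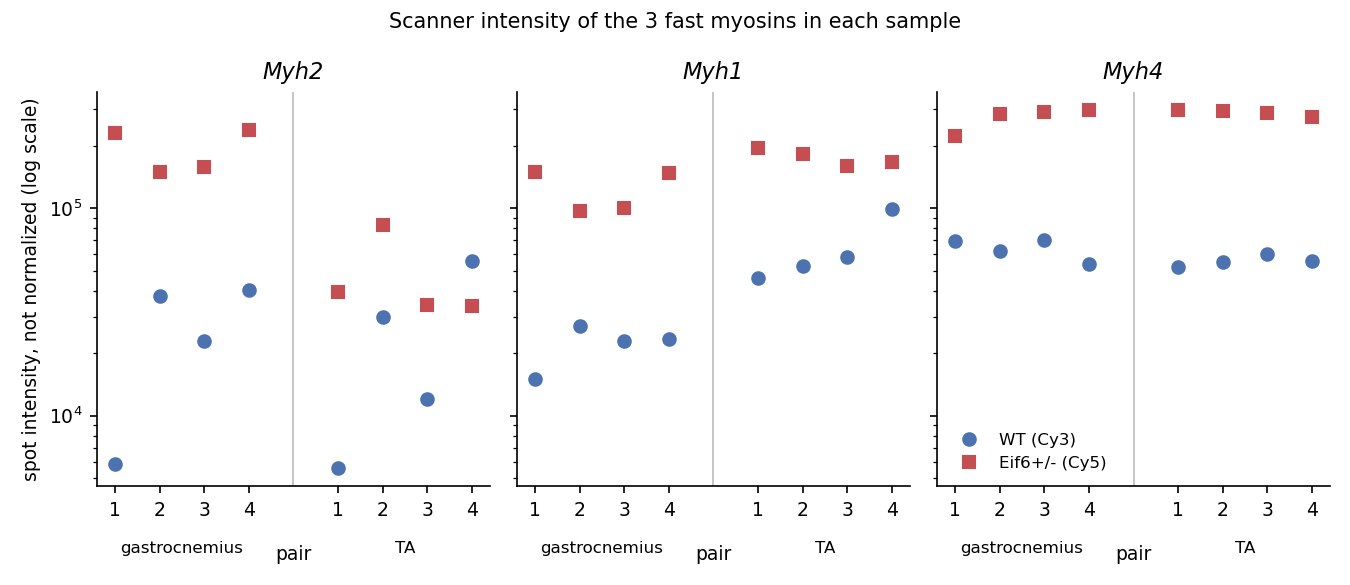
Spot intensity before normalization (log axis) of *Myh2*, *Myh1* and *Myh4* in the WT sample (blue, Cy3) and the *Eif6*+/- sample (red, Cy5) of each pair, gastrocnemius on the left of each panel and TA on the right. The WT intensity of *Myh2* ran from 5820 to 40302 in gastrocnemius and from 5568.5 to 55451.5 in TA, while each channel of *Myh4* kept near one height.

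The channels of the arrays say which sample of a pair stood away from its group. For *Myh2* the WT spot intensities before normalization were 5820, 37927, 22836 and 40302 in gastrocnemius pairs 1 to 4. The WT sample of pair 1 was far below the other 3, and highest and lowest differed 6.92-fold. The *Eif6*+/- intensities of the same spots were 231586, 149268, 157855 and 239821, a 1.61-fold range. The high ratio of pair 1 therefore stood on a low WT value, and the *Eif6*+/- sample of that pair was level with that of pair 4.

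In TA the WT intensities of *Myh2* were 5568.5, 29854.5, 12053.5 and 55451.5, a 9.96-fold range. The *Eif6*+/- intensities were 39426, 83067.5, 34236.5 and 33819.5, a 2.46-fold range. The negative ratio of TA pair 4 stood on the highest WT value, and the positive ratio of TA pair 1 on the lowest. After normalization the SD of the WT level of *Myh2* was 1.42 in gastrocnemius and 1.38 in TA, larger than for more than 99.9% of probes tested in each muscle. The SD of the *Eif6*+/- level was 0.33 and 0.59, larger than for 96.7% and 99.4% of probes.

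For *Myh1* the WT intensities were 15008, 26986, 22838 and 23427 in gastrocnemius and 45873.5, 52883.5, 57927 and 98828 in TA. The lowest WT sample in each muscle was that of pair 1, and the highest in TA that of pair 4, as for *Myh2*. The *Eif6*+/- intensities of *Myh1* were 149072, 96857, 100857 and 148016 in gastrocnemius and 194756, 181889, 159207 and 166643 in TA. For *Myh4* the WT intensities kept within 1.31-fold in gastrocnemius and 1.16-fold in TA, and those of *Eif6*+/- within 1.34-fold and 1.08-fold. After normalization the WT level of *Myh4* ran from 16.57 to 17.14 in gastrocnemius and from 16.18 to 16.70 in TA, with SDs of 0.26 and 0.23, larger than for 84.0% and 87.6% of probes.

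Over the 10 genes, the WT level varied more than the *Eif6*+/- level in 9 in gastrocnemius and in all 10 in TA. Over all probes tested the WT level varied more in 66.9% and 58.2%. Among probes as bright as these genes (*Mylpf* aside), the median SD was 0.16 in WT against 0.11 in *Eif6*+/- in gastrocnemius, and 0.19 against 0.09 in TA. As WT samples all carried Cy3, a wider spread of WT mice and a wider spread of that dye cannot be told apart. Before normalization, the range in gastrocnemius was about as wide in *Eif6*+/- as in WT for some genes. It was 1.31-fold in WT and 1.34-fold in *Eif6*+/- for *Myh4*, 1.32 and 1.31 for *Myl1*, and 1.25 and 1.21 for *Tnnc2*. Their SDs after it were 0.26 and 0.10, 0.29 and 0.06, and 0.41 and 0.09. For *Myh2* (6.92 and 1.61) and *Atp2a1* (3.08 and 1.18) that range was wider in WT. The part of normalization in this was not tested.

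**Figure D3:**
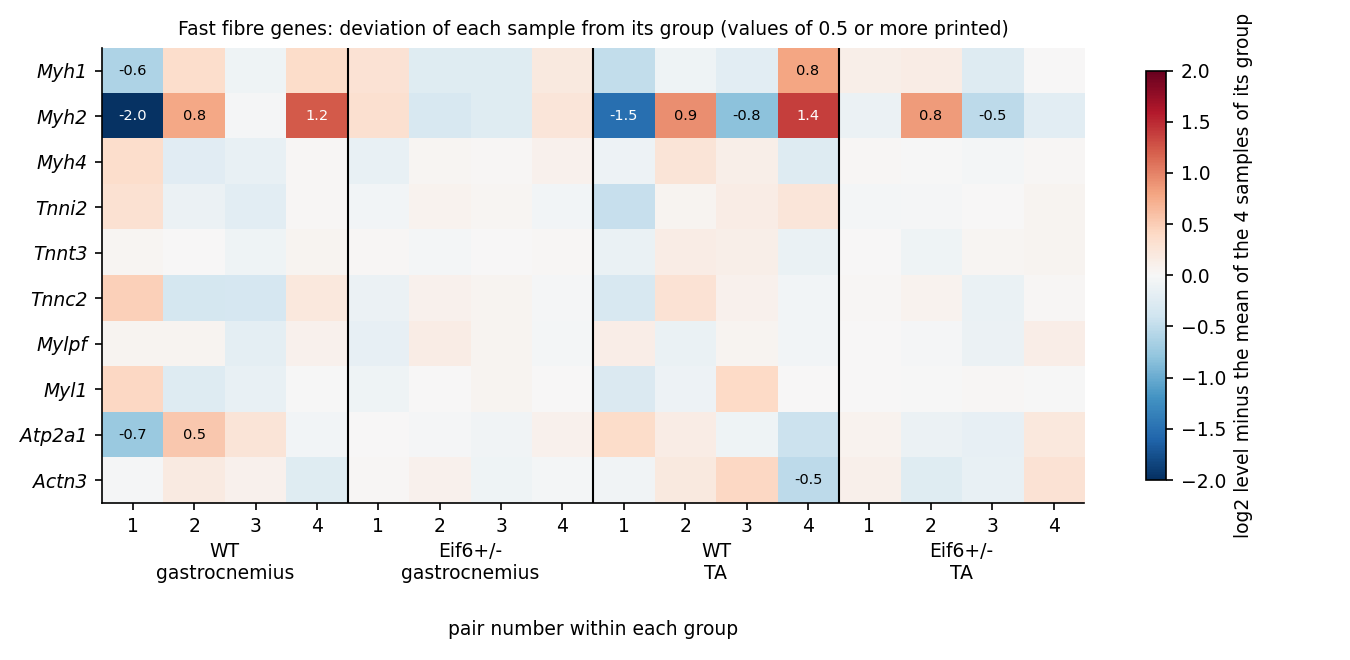
Deviation of each sample from the mean of the 4 samples of its group (colour, log2 level) for the 10 fast fibre genes, with columns for the pairs of WT and *Eif6*+/- gastrocnemius and TA. The deepest colours are those of *Myh2* in WT, from -1.98 in gastrocnemius pair 1 to 1.39 in TA pair 4, and the *Eif6*+/- samples of the other genes stay within 0.29.

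Of the light chains, *Myl1*, the essential light chain of fast fibres, had log2 ratios of -0.41, 0.35, 0.29 and 0.10 in gastrocnemius and 0.50, 0.29, -0.17 and 0.19 in TA, with means of 0.08 (limma, adjusted p = 0.725) and 0.20 (adjusted p = 0.251). In TA *Myl1* passed as higher in 4 of 16 alternatives, with loess alone (0.38, adjusted p = 0.0306), the deposited ratios (0.41, 0.0321) and median centring (1.53, 0.000311) and without pair 3 (0.33, 0.097). Its other probe had means of 0.01 in each muscle. *Mylpf*, the regulatory light chain of fast fibres, had log2 ratios of -0.46, -0.22, -0.51 and -0.16 in TA. All were below 0, and the mean was -0.34 ± 0.18 (SD, n = 4), a 1.27-fold decrease (limma, adjusted p = 0.0506) that was lost without pair 1 (adjusted p = 0.221), pair 2 (0.109) or pair 3 (0.129), with Agilent's processed signals (0.138) and with a normexp offset of 0 (0.102). In gastrocnemius the log2 ratios of *Mylpf* were -0.47, -0.17, 0.00 and -0.37 (mean -0.25; limma, adjusted p = 0.15). Median centring gave *Mylpf* a positive mean in both muscles.

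Among the troponins, *Tnnc2*, the calcium-binding subunit of fast fibres, had log2 ratios of 0.93, 0.35, 0.36 and 0.65 in TA. All were above 0. The mean was 0.57 ± 0.28 (SD, n = 4), a 1.49-fold increase (limma, adjusted p = 0.0263) that held in direction under all alternatives and was lost as a call only without pair 1 (adjusted p = 0.136). In gastrocnemius the log2 ratios of *Tnnc2* were -0.07, 0.95, 0.91 and 0.29. The mean of 0.52 ± 0.50 (SD, n = 4) was close to that in TA but missed the threshold (limma, adjusted p = 0.116), and without pair 1 it was 0.71 and passed (adjusted p = 0.0458), as it did under 5 other alternatives. With Agilent's processed signals the gastrocnemius ratios of *Tnnc2* were 0.44, 0.98, 0.97 and 0.67, all above 0.

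*Tnni2*, the inhibitory subunit, had log2 ratios of -0.14, 0.41, 0.48 and 0.15 in gastrocnemius and 0.61, 0.10, 0.04 and 0.00 in TA. The means were 0.23 and 0.19, and neither passed (limma, adjusted p = 0.248 and 0.283). With loess alone they were 0.59 and 0.63 and both passed (adjusted p = 0.0332 and 0.0145). With Agilent's processed signals the gastrocnemius ratios of *Tnni2* were 0.50, 0.48, 0.40 and 0.58, all above 0. *Tnnt3*, the subunit that binds tropomyosin, is read by 2 probes that disagreed. Its brighter probe had log2 ratios of -0.22, -0.24, -0.11 and -0.24 in gastrocnemius and 0.09, -0.28, -0.12 and 0.14 in TA, with means of -0.20 (limma, adjusted p = 0.126) and -0.04 (adjusted p = 0.783). In gastrocnemius this probe of *Tnnt3* passed as lower with no filter on dim probes (adjusted p = 0.0942), with the methods' t-test (0.0492), where it was the one call among the 10, and with SAM (0.0683), and as higher with median centring (1.40, 0.000102). In TA it passed as higher with loess alone (0.40, adjusted p = 0.0855), the deposited ratios (0.43, 0.0682) and median centring (1.58, 0.000189). The other probe had 0.67, 0.11, 0.16 and -0.24 in gastrocnemius (mean 0.18, adjusted p = 0.453) and -0.25, -0.48, -0.68 and -0.35 in TA, where its mean of -0.44 passed (limma, adjusted p = 0.031). *Tnnt3* is spliced into many isoforms, and which of them each probe reads is not given in the files used here.

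*Atp2a1* had log2 ratios of 0.03, -1.27, -1.06 and -0.60 in gastrocnemius and -0.90, -0.86, -0.67 and 0.04 in TA. In each muscle 3 of 4 pairs were well below 0 and the other pair was at it. The means were -0.72 ± 0.58 and -0.60 ± 0.44 (SD, n = 4 each), that is 1.65-fold and 1.51-fold lower in *Eif6*+/- (limma, adjusted p = 0.0749 and 0.0491). Of 16 alternatives and left-out pairs each, the call was lost in 8 in gastrocnemius and 7 in TA, with the direction kept, and median centring turned it. The WT intensities of *Atp2a1* in gastrocnemius were 24358.5, 74926, 58796 and 35622, a 3.08-fold range, and those of *Eif6*+/- kept within 1.18-fold. As for *Myh2*, the WT sample of gastrocnemius pair 1 was the lowest.

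*Actn3*, which anchors actin filaments at the Z-disc of fast fibres, had log2 ratios of -0.31, -0.46, -0.52 and -0.16 in gastrocnemius. All were below 0, and the mean was -0.36 ± 0.16 (SD, n = 4), a 1.28-fold decrease (limma, adjusted p = 0.0571). The call was lost without pair 2, 3 or 4 (adjusted p = 0.118, 0.199 and 0.157), with loess alone (0.163), Agilent's processed signals (0.153), the deposited ratios (0.192) and the methods' t-test (0.117), and median centring turned the direction. In TA the log2 ratios of *Actn3* were 0.02, -0.58, -0.70 and 0.66, on both sides of 0 (mean -0.15; limma, adjusted p = 0.652).

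Whether the genotype ratio differed between the muscles was tested over all 8 arrays. None of the 10 genes and none of 12200 genes passed (limma, 0.00% called, smallest adjusted p over all probes 0.27), with 995 genes and 2 of the 10 at an unadjusted p under 0.05. These 2 were *Myh1*, whose ratio was 0.91 higher in gastrocnemius than in TA, and *Myh4*, with a difference of -0.45 (limma, adjusted p = 0.636 each). The dimmer probe of *Tnnt3*, not counted among these, had a difference of 0.62 with no overlap of the ratios of the muscles and the same adjusted p of 0.636 (limma). The ratio of *Myh2* was 1.57 higher in gastrocnemius (adjusted p = 0.647). None of the other settings called any of the 10, and without the filter on dim probes 1 gene of 20660 passed.

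The muscles themselves were compared within each genotype, where both sides carry the same dye. In WT, *Myh1* alone of the 10 passed by its brightest probe, against 21.1% of 12200 genes (7.9% higher in gastrocnemius and 13.2% lower). Its WT levels were 14.59, 15.57, 15.12 and 15.58 in gastrocnemius and 16.16, 16.57, 16.45 and 17.45 in TA (log2 intensity), with no overlap. *Myh1* was 2.72-fold lower in WT gastrocnemius (-1.45 ± 0.29, SE; limma, adjusted p = 0.0153) and passed under all 16 alternatives and left-out samples. The WT levels of *Myh2* were 13.18, 15.93, 15.14 and 16.39 in gastrocnemius and 13.23, 15.67, 13.92 and 16.13 in TA. They overlapped over nearly their whole range (difference 0.42 ± 0.77, SE; limma, adjusted p = 0.761). The WT level of *Myh4* was 0.34 ± 0.15 (SE) higher in gastrocnemius and missed the threshold (limma, adjusted p = 0.161). The dimmer probe of *Tnnt3* also passed, at -0.72 ± 0.16 (SE; limma, adjusted p = 0.0209), with WT levels of 16.32 to 17.16 in gastrocnemius and 17.33 to 17.63 in TA that did not overlap.

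In *Eif6*+/-, 2 of the 10 passed, against 16.9% of 12200 genes (6.67% higher in gastrocnemius and 10.2% lower). The *Eif6*+/- levels of *Myh2* were 17.10, 16.45, 16.54 and 17.02 in gastrocnemius and 14.67, 15.63, 14.26 and 14.58 in TA, with no overlap. *Myh2* was 3.98-fold higher in *Eif6*+/- gastrocnemius than in *Eif6*+/- TA (1.99 ± 0.26, SE; limma, adjusted p = 0.0046) and passed under all 16 alternatives and left-out samples. *Myh1* was 1.45-fold lower in *Eif6*+/- gastrocnemius (-0.53 ± 0.14, SE; limma, adjusted p = 0.0447), a call that was lost without gastrocnemius pair 2 (adjusted p = 0.107), without TA pair 1 (0.116) and without TA pair 2 (0.113). Its levels overlapped, from 15.93 to 16.46 in gastrocnemius and from 16.44 to 16.85 in TA. That *Myh2* passed in *Eif6*+/- and not in WT does not show a difference between the genotypes, which is the contrast of the ratios given above.

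**Figure D4:**
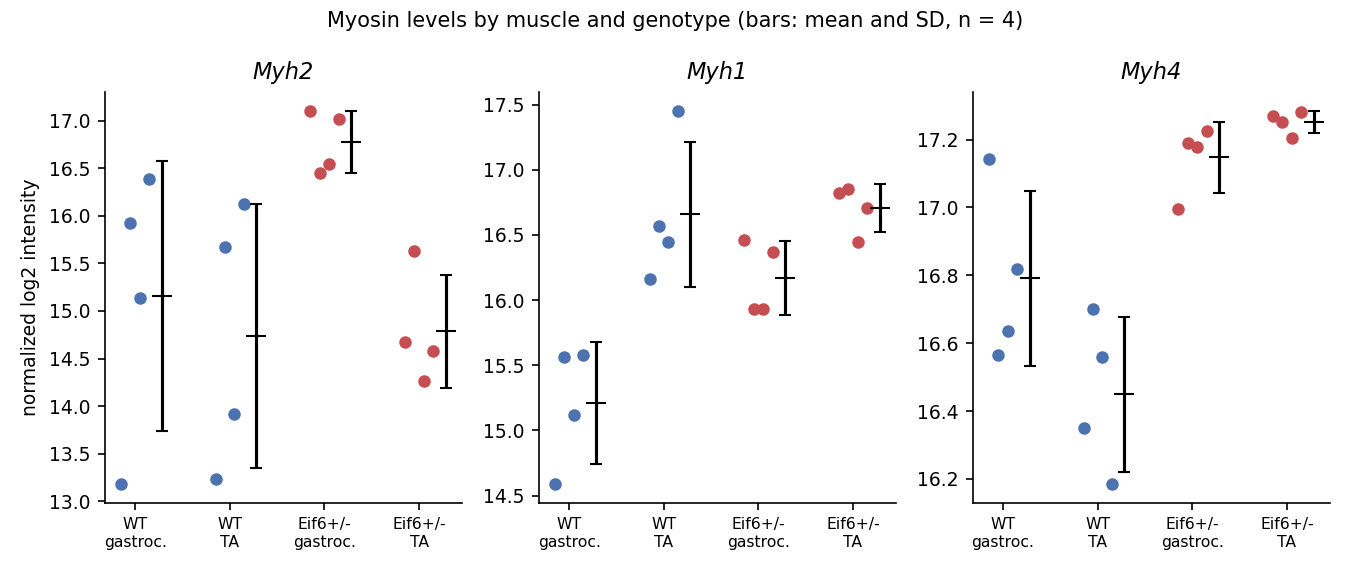
Normalized log2 intensity (vertical axis, a scale of its own in each panel) of *Myh2*, *Myh1* and *Myh4* in each sample, by genotype and muscle, with mean and SD (n = 4). *Myh2* separates the muscles in *Eif6*+/- (14.26 to 15.63 in TA, 16.45 to 17.10 in gastrocnemius) while its WT samples overlap.

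The slow fibre genes were looked at beside these, since *Myh2* marks oxidative fibres. The list holds the slow myosin *Myh7*, its light chains *Myl2* and *Myl3*, the slow troponins *Tnni1*, *Tnnt1* and *Tnnc1*, *Tpm3*, the slow calcium pump *Atp2a2*, *Casq2* and *Myoz2*. The labels of the muscles held for these: 6 of 10 were higher in WT gastrocnemius than in WT TA and 8 of 10 in *Eif6*+/-, and none lower. Of all genes, 7.9% and 6.67% were higher in gastrocnemius. *Myl2* was 4.59 ± 0.85 and 5.97 ± 0.46 higher (log2, SE; limma, adjusted p = 0.012 and 0.000218) and *Myh7* 4.02 ± 1.04 and 5.12 ± 0.69 higher (adjusted p = 0.0369 and 0.00501).

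Between genotypes, none of the 10 slow fibre genes passed in gastrocnemius, against 15.4% of all genes. In TA 5 passed, all lower in *Eif6*+/-, against 16.3% of all genes (7.29% lower). The 5 were *Tnnt1* (-0.90, adjusted p = 0.0237), *Tnni1* (-0.80, 0.0246), *Casq2* (-0.59, 0.0309), *Myoz2* (-0.53, 0.0759) and *Tnnc1* (-0.41, 0.035). *Tnnc1* and *Tnni1* were dim in TA. Their intensities before normalization were 82 to 138 and 130.5 to 328 in WT, and 101 to 141 and 114.5 to 177 in *Eif6*+/-. The median intensity of a TA array was 46 to 61 in Cy3 and 60 to 64.5 in Cy5. *Tnnt1*, *Casq2* and *Myoz2* were brighter. The part of background in these ratios was not tested. The median log2 ratio of the list was 0.25 in gastrocnemius and -0.45 in TA. On single arrays its median was 2.63, -1.16, -0.27 and -0.06 in gastrocnemius pairs 1 to 4 and -0.24, -0.49, -0.11 and -0.98 in TA pairs 1 to 4. Gastrocnemius pair 1 thus stood apart for the slow genes as it did for *Myh2* and *Myh1*. The log2 ratio of *Myh7* was 5.01 on that array and -1.81, -0.26 and -0.34 on the other 3 of gastrocnemius.

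For the slow genes several gastrocnemius samples stood away from their groups. The median deviation of the list from the group mean was -1.39, 0.0322, 0.0914 and 1.36 in the WT samples of pairs 1 to 4 and 0.80, -1.22, -0.45 and 0.83 in the *Eif6*+/- samples (log2). In pair 1 the samples deviated in opposite directions, and in pair 4 both were high. The WT intensities of *Myh7* before normalization were 504.5, 5354.5, 5480 and 17044.5 in gastrocnemius, so that the WT sample of pair 1 was more than 10 times below the next. The *Eif6*+/- intensities were 38271, 3303.5, 8870 and 41080.5, with pairs 1 and 4 far above the others. The summed level of the slow list (log2 of the summed intensities) was 14.24, 16.11, 15.55 and 17.31 in the WT samples of gastrocnemius, in the same order as *Myh2*. In the WT samples of TA it was 13.98, 15.29, 13.80 and 15.43, and there *Myh2* and the list put pairs 2 and 4 above pairs 1 and 3. In the *Eif6*+/- samples it was 17.15, 15.12, 15.69 and 17.14 in gastrocnemius and 14.00, 14.83, 13.82 and 14.15 in TA. The part of these shifts in the ratios of *Myh2* and *Myh1* was not tested.

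**Figure D5:**
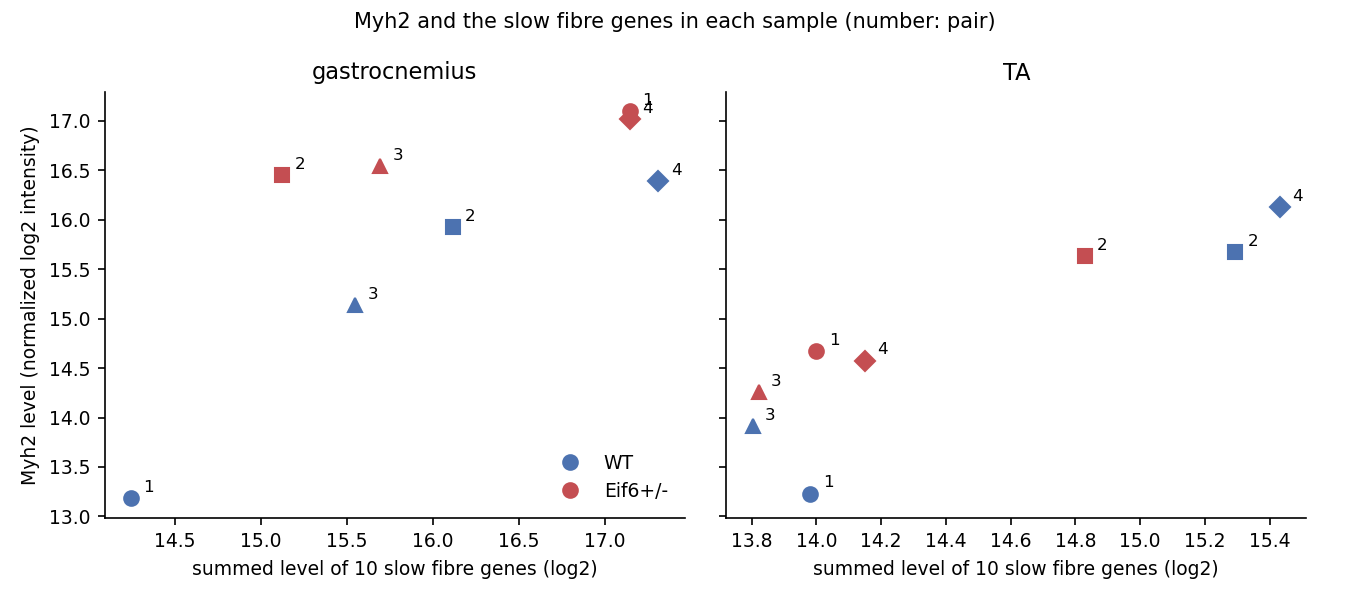
*Myh2* level (vertical axis, normalized log2 intensity) against the summed level of 10 slow fibre genes (horizontal axis, log2) in each WT (blue) and *Eif6*+/- (red) sample of gastrocnemius (left) and TA (right), numbered by pair. Within gastrocnemius the WT sample of pair 1 is lowest on both axes (14.24 and 13.18), and in TA the WT samples of pairs 2 and 4 are high on both.

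Over the 8 arrays the log2 ratios of *Myh2* and *Myh1* ran together (Pearson r = 0.96, Spearman rho = 0.90). Those of *Myh2* and *Myh4* ran apart (r = -0.81, rho = -0.55), as did those of *Myh1* and *Myh4* (r = -0.87, rho = -0.81). With the median of the slow list, r was 0.86 for *Myh2* (rho = 0.62), 0.82 for *Myh1* (rho = 0.57) and -0.84 for *Myh4* (rho = -0.57). Without gastrocnemius pair 1 and TA pair 4, the arrays farthest out for *Myh2* and for *Myh1*, r was 0.70 between *Myh2* and *Myh1* but 0.44 between *Myh2* and *Myh4*, -0.14 between *Myh1* and *Myh4* and 0.23 between *Myh2* and the slow list (n = 6). Over ratios, the opposition of *Myh4* to the others and the likeness of *Myh2* to the slow list therefore rested on those 2 arrays. In levels, the samples of WT and of *Eif6*+/- gastrocnemius stood in the same order for *Myh2* and for the summed slow list, and in TA the highest sample of each genotype was the same for both. The points share a WT dye, a slide and, in part, the muscle, and no test was made.

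The genes whose log2 ratios were most like those of *Myh1* over the 8 arrays, among 12199 tested in both muscles, were *Slmap* (r = 0.98, ratios from -0.13 to 0.49), *Plekha1* (r = 0.98, from 0.08 to 0.45) and *Mb*, myoglobin (r = 0.97, from -1.15 to 1.98). For *Myh2* they were *Ddt* (r = 0.98, from -0.66 to 0.55), *Smtnl1* (r = 0.98, from -0.49 to 1.35) and *Plekha1* (r = 0.97). For *Myh4* they were *E2f2* (r = 0.96, from -0.45 to 0.39), *Pla2g7* (r = 0.95, from -0.76 to 0.80) and *Rbfox1* (r = 0.94, from -0.10 to 0.51). These are the largest of 12199 values of r over 8 arrays, where unrelated genes can also reach high r by chance. They were not tested, nor repeated without gastrocnemius pair 1 and TA pair 4.

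Other genes of the fast fibre were read from a list of 14, chosen by function. In gastrocnemius 2 were higher in *Eif6*+/-, the glycolytic enzymes *Aldoa* (0.62, limma, adjusted p = 0.0334) and *Ldha* (0.46, 0.0997), and 3 were lower, *Pygm* (glycogen phosphorylase; -0.43, 0.0469), *Casq1* (calcium store of the reticulum; -0.44, 0.0538) and *Mybpc2* (fast myosin binding protein; -0.30, 0.0717). In TA 4 of 13 tested were higher, *Ldha* (0.65, 0.0119), *Myom2* (M-band; 0.53, 0.012), *Aldoa* (0.51, 0.0265) and *Tpm1* (tropomyosin; 0.49, 0.0349), and *Pgam2* was lower (-0.23, 0.0879). *Aldoa* and *Ldha* passed in both muscles. Of all genes, 15.4% passed in gastrocnemius and 16.3% in TA. The median log2 ratio of the list was -0.00104 in gastrocnemius and 0.01 in TA. Between the WT muscles *Mybpc2* (0.51, adjusted p = 0.0283) and *Pygm* (0.48, 0.0892) were higher in gastrocnemius, and in *Eif6*+/- none of the 13 passed (limma). Of all genes, 21.1% passed between WT muscles and 16.9% between *Eif6*+/- muscles.

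Of 6 other myosin heavy chains, 1 was a nonmuscle myosin. The probe of *Myh8*, the perinatal heavy chain and next neighbour of *Myh4*, was higher in *Eif6*+/- in both muscles (0.46 in gastrocnemius, adjusted p = 0.0544, and 0.86 in TA, 0.0136). Its ratio in TA was close to that of *Myh4*, and the limit on cross-binding between near copies holds for it too. Over both muscles its level was 17.33 to 17.63 in *Eif6*+/- and 16.40 to 17.30 in WT (log2 intensity). That of *Myh4* was 17.00 to 17.28 and 16.18 to 17.14. How much of the signal of the *Myh8* probe comes from RNA of other myosins was not tested. *Myh13*, the extraocular heavy chain (-0.67, 0.0378), and *Myh7b* (-0.68, 0.0119) were lower in TA. Both were dim there. Intensities before normalization were 84.5 to 196 in WT and 80.5 to 155 in *Eif6*+/- for *Myh13*, and 106 to 206 and 94 to 169.5 for *Myh7b*. In WT gastrocnemius *Myh13* was at 51 to 108. Between WT muscles *Myh6* (-1.54, 0.0066) and *Myh13* (-0.85, 0.0298) were lower in gastrocnemius, and between *Eif6*+/- muscles *Myh7b* was higher there (1.82, 0.0486). Of all genes, 15.4% passed in gastrocnemius and 16.3% in TA. Between muscles 21.1% passed in WT and 16.9% in *Eif6*+/-.

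Of 18 tested regulators of the fast and slow programmes, 7 passed in gastrocnemius, which is 5 higher and 2 lower. Of all genes, 15.4% passed there (9.85% higher and 5.53% lower). *Eya1*, a coactivator of the fast programme, was higher by 0.58 (limma, adjusted p = 0.035), *Nfatc3* by 0.51 (0.0287), *Mef2a* by 0.45 (0.0512), *Ppargc1a*, the coactivator of mitochondrial biogenesis, by 0.33 (0.053) and *Rcan1*, a target and inhibitor of calcineurin, by 0.32 (0.0866). *Mef2d* (-0.43, 0.0629) and *Maf* (-0.42, 0.0931) were lower. In TA *Eya1* (0.58, 0.0125), *Mef2a* (0.46, 0.0153) and *Nfatc3* (0.28, 0.0714) were higher, and *Mef2d* (-0.38, 0.0601) and *Nfix* (-0.38, 0.0378) lower, against 16.3% of all genes (8.98% higher and 7.29% lower). *Eya1*, *Mef2a*, *Nfatc3* and *Mef2d* passed in both muscles with the same sign. Between WT muscles *Vgll2* (-1.07, 0.0399), *Esrrg* (-0.66, 0.0463), *Ppargc1a* (-0.36, 0.0311), *Nfatc3* (-0.30, 0.0427) and *Tbx15* (-0.30, 0.098) were lower in gastrocnemius, and *Nfatc2* (0.45, 0.0208) and *Nfatc1* (0.37, 0.0547) higher. Between *Eif6*+/- muscles *Nfix* (0.35, 0.0447) and *Nfatc1* (0.31, 0.0486) were higher and *Tbx15* lower (-0.28, 0.0601). Of all genes, 21.1% passed between WT muscles and 16.9% between *Eif6*+/- muscles.

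Markers of other cells that a piece of muscle can hold moved as follows. In gastrocnemius none of 5 blood, 6 connective tissue and 4 myelinated nerve genes passed, 2 of 5 fat genes were lower in *Eif6*+/- and 1 of 3 leukocyte genes was lower. Of all genes, 9.85% were higher and 5.53% lower there. In TA 4 of 5 blood genes were lower, 2 of 4 nerve genes were lower, 2 of 5 fat genes were higher, 1 of 5 leukocyte genes was lower and none of 6 connective tissue genes passed. Of all genes, 8.98% were higher and 7.29% lower in TA. The summed level of the blood list in TA ran from 15.81 to 16.26 in WT and from 15.21 to 16.10 in *Eif6*+/- (log2). Between WT muscles 4 of 5 fat genes, 4 of 6 connective tissue genes and 1 of 4 nerve genes were higher in gastrocnemius, against 7.9% of all genes. Between *Eif6*+/- muscles 3 fat genes, 2 connective tissue, 2 of 5 blood, 1 of 3 leukocyte and 4 of 4 nerve genes were higher in gastrocnemius, and 1 fat gene lower. Of all genes, 6.67% were higher and 10.2% lower in that comparison. The part of these lists in the values of the fast fibre genes was not tested.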

How the data were processed

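Per array, the authors deposited scanner values from Agilent Feature Extraction 10.5.1.1 (spot intensity and local background of both dyes, not normalized), and a table of log2 ratios per spot. That deposited table holds log2 Cy5 over Cy3 after loess within each array (r of at least 0.9999 with such ratios of uncorrected intensities computed here), with column medians of 0.00257, 0.000831, -0.00441 and 0.00375 (gastrocnemius, pairs 1 to 4) and 0.00138, -0.000366, 0.00288 and 0.00212 (TA). The methods name log2 transformation, quantile normalization and SAM.

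Median intensities (no mean is in the files) were corrected by normexp with offset 50, normalized by loess and then by quantiles over all 16 channels, which can return a ratio of exactly 0. Control spots and outlier spots were left out. Probes that stood well above background on all 4 arrays of a muscle, in either channel (23802 and 23391, and 22765 in both) were tested with lmFit and eBayes of limma 3.58.1 in R 4.3.3. Gene names came from RefSeq (GRCm38.p6) for 27235 of 28685 probes with an accession, and a gene was read by its brightest probe. Tests were tried on simulated data. Figures used matplotlib 3.10.9. Replicates are mice, 4 per group, whose number limits the precision.

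The members and lists were chosen with earlier results of these data known. Named with values are the 10 genes, the genes past the threshold of the fibre, myosin and regulator lists (all 10 of the slow list by name), *Eif6*, and for each myosin the 3 genes most like it. The threshold of 0.1 is looser than that the methods give for SAM, and the same as that at which the paper's Results count changed genes. Alternatives were other background corrections, normalizations, signals, filters and tests, the mean of all probes of a gene, and each array left out.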

Additional observations from a re-analysis of the deposited data

Results flagged for a closer look

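A sample was marked where it lay far from the other 3 of its group by Dixon's ratio, over 72 groups of 4 (12 probes, 2 muscles, ratio and both channels). Chance marks about 1 in 20 groups, and 2 were marked. The log2 ratio of *Tnni2* in TA pair 1 was 0.61, and the other 3 lay between 0.00 and 0.10. With Agilent's processed signals the ratios of *Tnni2* in TA were 0.61, 0.57, 0.57 and 0.37, and pair 1 did not stand apart. The WT level of *Mylpf* in gastrocnemius pair 3 was 11.94 (log2 intensity), and the other 3 lay between 12.19 and 12.21. The *Myh2* values of gastrocnemius pair 1 were not marked, since the other 3 pairs were themselves spread.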

How the results depend on the processing

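Of 470 alternative values for single genes, 374 kept their direction and side of the threshold, 34 lost the call, 40 gained it and 22 changed sign. The 10 fast fibre genes gave 3 calls in gastrocnemius and 4 in TA. With loess alone or with the deposited ratios they gave 5 in gastrocnemius, with SAM 7, with the methods' t-test 1, and with median centring (chosen after seeing the data) 10 in each muscle, where it called 80.2% and 82% of all genes. The methods' t-test called 977 and 878 of all genes after adjustment. At an unadjusted p under 0.05 it took 7 and 4 of the 10, beside 3049 of 12609 and 2912 of 12381 genes. Leaving out each array gave 0 to 7 calls in gastrocnemius, 1 to 4 in TA, 1 to 2 between *Eif6*+/- muscles and 1 throughout between WT muscles, while 0 to 14%, 0.549 to 16.3%, 7.8 to 18.7% and 12.6 to 21.3% of all genes passed. SAM called 3201 genes in gastrocnemius against 1939, and Agilent's processed signals 1000 there and 774 in TA against 2014.

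Signs changed as follows, and the cause was not tested. *Tnnt3* became 0.0701 and 0.40 with loess alone, 0.00993 and 0.33 with Agilent's processed signals, and 0.10 and 0.43 with the deposited ratios in gastrocnemius and TA. Under median centring gastrocnemius had 1.40 for *Tnnt3*, 0.72 for *Mylpf*, 0.52 for *Atp2a1* and 0.97 for *Actn3*, and TA had 1.58, 0.47, 0.52 and 1.08. That setting put the median of all genes at 0.59 and 0.55, and relative to it *Atp2a1* was at -0.07 and -0.04, *Actn3* at 0.37 and 0.53, *Mylpf* at 0.12 and -0.08, *Myh1* in gastrocnemius at 1.65 and *Myh4* in TA at 1.61. With each array left out, the mean ran in TA from -0.15 to 0.31 for *Myh1*, from -0.42 to 0.58 for *Myh2*, from -0.42 to 0.0327 for *Actn3* and from -0.10 to 0.0369 for *Tnnt3*, in gastrocnemius from -0.00734 to 0.25 for *Myl1*, and between WT muscles from -0.0785 to 1.08 for *Myh2*. Median centring and the deposited ratios give no channel levels and were not run between the muscles within a genotype.

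Pair numbers were not shown to pair the samples: same-numbered gastrocnemius and TA arrays correlated at -0.14, 0.02, -0.36 and 0.09 (deviations of log2 ratios over probes). With the pair number as a replicate block, 0 of the 10 passed in the difference between muscles, 1 between WT and 2 between *Eif6*+/- muscles, as without it, and over all genes 1858 against 2578 and 2249 against 2057. Probes close to background were not among those of the 10, but some probes of the other lists were dim in TA, as given above.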
